A study of Mus musculus with 7 samples.

Results

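Fc gamma receptors are the proteins by which macrophages, neutrophils and other white cells sense immunoglobulin G, and 8 genes of this system were followed here in mouse aorta: the receptors *Fcgr1*, *Fcgr2b*, *Fcgr3* and *Fcgr4*, the signalling adaptors *Fcer1g* and *Tyrobp*, the kinase *Syk* and the adaptor *Sh2d1b1*. They were picked by symbol from a table of 47729 genes, as the family around *Fcgr4*, which had stood out as much higher in KO. All 8 were found and all 8 passed the filter on low counts, which left 19188 genes. Because the family was chosen on the comparison of KO with WT, its differences between these groups are given as a description. How many of the 8 passed a test over all genes is counted once, beside the share of all genes that did, and supports nothing about them. RNA of aorta tissue was sequenced from mice labelled as *Mmp19* knockouts (KO, 3 libraries) and from wild-type mice (WT, 4 libraries). The protein, a metalloproteinase secreted into the matrix, is studied in the series for protection of the aorta from aneurysm and dissection through smooth muscle cells. The labels give no age, sex, strain, treatment or part of the aorta, and do not say whether the deletion covers all cells or whether animals were pooled. They do not say either that libraries stand for separate animals, so p-values measure the spread between these libraries.

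Signalling by these receptors is well described. Activating receptors (*Fcgr1*, *Fcgr3*, *Fcgr4*) signal through the common gamma chain encoded by *Fcer1g*, whose ITAM motif is phosphorylated by Src-family kinases and then docks the kinase Syk. In contrast, *Fcgr2b* carries an inhibitory ITIM motif in its own tail and recruits the phosphatase SHIP1 (*Inpp5d*). *Tyrobp* encodes DAP12, an ITAM adaptor of other myeloid receptors such as Trem2, and *Sh2d1b1* encodes EAT-2A, a small SH2 adaptor of SLAM-family receptors, known best from natural killer cells. In an artery wall the receptors are known mainly from macrophages, and *Fcgr2b* also from B cells.

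*Fcgr2b*, *Fcgr4* and *Fcgr3* lie side by side on chromosome 1 and read in different directions, with *Fcer1g* further along. The bases just before the start of the 4 receptor genes are shown because 3 of these genes share a short element there that the fourth lacks. The sequences are the 150 bases before the RefSeq transcription start, 5′ to 3′ along the gene. Capitals mark GAGGAA on either strand (TTCCTC when read along the gene), which is among the sequences bound by the myeloid factor PU.1. In *Fcgr1* they also mark TTCNNNGAA, the pattern of gamma-activated sites.
*Fcgr1*, GRCm38.p6, chr3:96293970-96294119, minus strand: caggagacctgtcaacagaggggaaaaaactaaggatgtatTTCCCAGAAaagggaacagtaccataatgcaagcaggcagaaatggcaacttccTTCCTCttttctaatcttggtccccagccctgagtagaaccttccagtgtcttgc
*Fcgr3*, GRCm38.p6, chr1:171059395-171059544, minus strand: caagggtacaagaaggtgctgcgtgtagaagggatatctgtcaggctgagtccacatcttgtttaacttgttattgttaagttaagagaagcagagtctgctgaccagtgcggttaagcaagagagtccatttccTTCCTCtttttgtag
*Fcgr4*, GRCm38.p6, chr1:171018776-171018925, plus strand: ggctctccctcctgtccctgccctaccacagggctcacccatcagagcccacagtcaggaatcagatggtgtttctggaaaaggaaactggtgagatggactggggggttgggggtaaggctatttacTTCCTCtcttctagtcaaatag
*Fcgr2b*, GRCm38.p6, chr1:170976072-170976221, minus strand: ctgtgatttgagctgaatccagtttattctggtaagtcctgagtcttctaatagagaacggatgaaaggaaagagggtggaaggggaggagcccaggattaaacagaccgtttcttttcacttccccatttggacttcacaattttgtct

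GAGGAA or its reverse complement lay 55 to 50 bases before the start of *Fcgr1*, 15 to 10 before that of *Fcgr3* and 22 to 17 before that of *Fcgr4*, which are the activating receptors. It did not occur in the window of the inhibitory *Fcgr2b*. RefSeq lists a second start of *Fcgr3*, for which the same element ends 1 base before the start. Of the other members in the RefSeq promoter table, which held 7 of the 8, *Sh2d1b1* and 1 of the 2 *Syk* starts had GAGGAA in this window and *Fcer1g* did not. The element is common, being present in 14.5% of 32851 such windows of the mouse genome. TTCNNNGAA was found in *Fcgr1* alone of these members, its first base 109 bases before the start, and in 4.09% of all windows. The patterns do not overlap each other in these windows, they were chosen after these promoters had been read, a match is no evidence that a factor binds there, and no match says only that these letters are not in the window. Other sequences bound by PU.1 were not searched, so whether the *Fcgr2b* window holds one was not tested.

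Estimated counts summed to between 71061475 and 76926790 in KO and between 68151472 and 75132809 in WT. Levels are given as CPM, the count of a gene relative to the scaled total of its library. *Mmp19* itself was still counted, at 17.8 ± 6.96 CPM in KO, against 26.2 ± 5.96 CPM in WT (SD, n = 3 and 4), and 1 of the KO libraries, replicate 1 at 25.5 CPM, was within the 20.7 to 34.7 CPM seen in WT. The fitted log2 difference was -0.56 (SE 0.29), with an adjusted p of 0.368 in edgeR, and KO means a library labelled as such throughout. Smooth muscle markers, which define the wall of the aorta, were abundant in all libraries but lower in every KO library, with 7 genes that summed to 3436 to 13679 CPM in KO, against 18211 to 20175 CPM in WT. In edgeR's quasi-likelihood test 3 of the 19188 genes passed an adjusted p of 0.05, all of them higher in KO, which is 0.0156% of those tested.

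All 8 genes were higher in every KO library than in any WT library. Their log2 fold changes ran from 2.14 for *Syk* to 4.93 for *Fcgr4*, with a median of 2.98 where that of all tested genes was -0.03. Such groups without overlap were found for 8.17% of all tested genes in this direction and for 8.56% in the other. Within KO the order was the same for all 8 genes, replicate 1 highest, then replicate 3, then replicate 2, as for 57.2% of all genes that did not overlap in this direction. RNA of whole tissue does not tell apart more cells that carry a transcript from more of the transcript per cell.

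**Figure D1:**
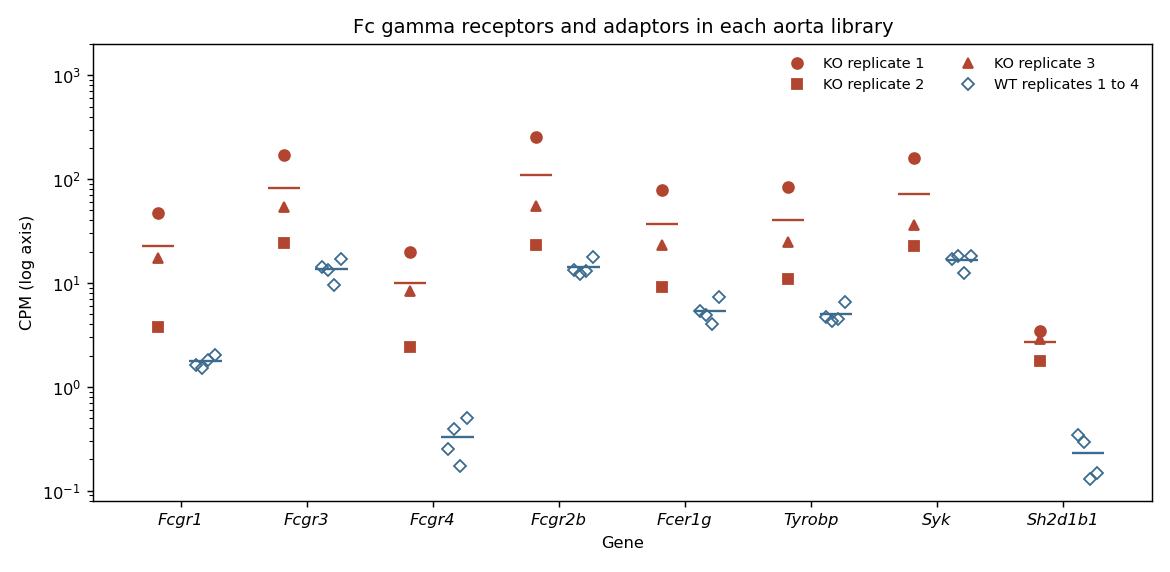
Levels of the 8 genes in each library (CPM, log axis), KO in filled red symbols, WT in open blue diamonds, with a line at the mean of each group (n = 3 KO and 4 WT). In each gene every KO symbol lies above the WT diamonds, with KO replicate 2 the nearest to them.

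None of the 8 genes passed edgeR's correction over all genes (0 of 8, against 0.0156% of all genes called higher), although each had an unadjusted p under 0.05 (8 of 8 higher and 0 lower, against 9.92% of all genes higher and 7.27% lower). DESeq2 called 8 of 8 as higher, where it called 5.32% of all genes higher, and limma-voom called 0 of 8, where it called 0.0365%. Without KO replicate 2, edgeR called 8 of 8 and 3.34% of all genes as higher. Leaving out KO replicate 1, it called 0 of 8, and likewise 0 of 8 on leaving out KO replicate 3. Since these genes were picked on this contrast, nothing is read from these counts.

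Among the activating receptors, *Fcgr4* (chromosome 1, 171018920 to 171029761, GRCm38), which binds IgG2 subclasses and is known from monocytes, macrophages and neutrophils, differed most. It had 19.7, 2.43 and 8.34 CPM in KO replicates 1, 2 and 3, against 0.251, 0.394, 0.172 and 0.502 CPM in WT replicates 1 to 4. The lowest KO library was 4.83 times as high as the highest WT library. The log2 fold change of 4.93 (SE 0.74) ranked 44 among the 19188 genes, so that 0.229% of them reached it, and it was 4.02 without KO replicate 1. The gene had 170 to 1618 estimated counts a library in KO, against 12 to 37 in WT, where it was close to the limit of counting.

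*Fcgr1*, the high-affinity IgG receptor (chromosome 3, 96282909 to 96293969, GRCm38), had 46.9, 3.73 and 17.4 CPM in KO replicates 1, 2 and 3, against 1.63, 1.53, 1.82 and 2.04 CPM in WT. KO replicate 2 was thus 1.83 times the highest WT library, while replicate 1 was 26.7 times the WT mean. Its log2 fold change was 3.69 (SE 0.72), or 2.58 when KO replicate 1 was left out. *Fcgr3*, the low-affinity activating receptor (chromosome 1, 171051174 to 171064935), had 170, 24.2 and 54.4 CPM in KO, against 14.1, 13.4, 9.54 and 17.0 CPM in WT. The log2 fold change of *Fcgr3* was 2.62 (SE 0.59), and it was 1.54 without KO replicate 1.

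*Fcgr2b*, the inhibitory receptor (chromosome 1, 170958617 to 170976547), had 253, 23.4 and 54.7 CPM in KO replicates 1, 2 and 3, against 13.2, 12.2, 13.0 and 17.9 CPM in WT. It was the receptor that leaned most on KO replicate 1, with a log2 fold change of 2.97 (SE 0.72) that was 1.47 without that library. *Fcgr2b* and *Fcgr3* have closely related sequences, and 9.58% of the stretches of 50 bases in *Fcgr3* transcripts also occur in *Fcgr2b* transcripts, a share of 2.54% for stretches of 100 bases. For *Fcgr1* and *Fcgr4* this share with any other gene was 0%. Of the stretches of 50 bases in *Fcgr2b* transcripts, 6.95% occur in any other gene on either strand, and 2.92% in *Fcgr3*. For stretches of 100 bases the share with any other gene was 4.3%, with *Cplx2* as the top gene. Reads from stretches shared by *Fcgr2b* and *Fcgr3* can be split between them, and how the authors assigned such reads is not given in the sources used here. An antisense gene overlaps the start of *Fcgr2b* and held at most 4 estimated counts in any library.

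The makeup of the receptor pool follows in part from the choice of the family, which was made because *Fcgr4* was higher in KO, and is given as a description. On a scale of CPM per kilobase of exon, *Fcgr4* made up 8.93%, 9.05% and 12.3% of the 4 receptors in KO replicates 1, 2 and 3, against 1.78%, 2.93%, 1.60% and 2.84% in WT. This share was similar in KO replicate 2, which had the lowest receptor levels of KO, and in replicate 1, which had the highest. On this scale *Fcgr3* was the largest component in every library, at 59.6 ± 4.96% in KO and 69.4 ± 3.76% in WT. *Fcgr2b* made up 20.4 ± 3.94% in KO and 22.1 ± 2.88% in WT (SD, n = 3 and 4). *Fcgr1* made up 9.83 ± 2.88% in KO and 6.23 ± 1.31% in WT. The ranges of *Fcgr1*, *Fcgr2b* and *Fcgr3* overlapped between the groups. The shares depend on the merged exon length, which is 5790 bases for *Fcgr2b* and 1736 for *Fcgr3*. In CPM without this length, *Fcgr2b* was above *Fcgr3* in KO replicates 1 and 3 and WT replicates 3 and 4. It was below *Fcgr3* in the remaining libraries.

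**Figure D2:**
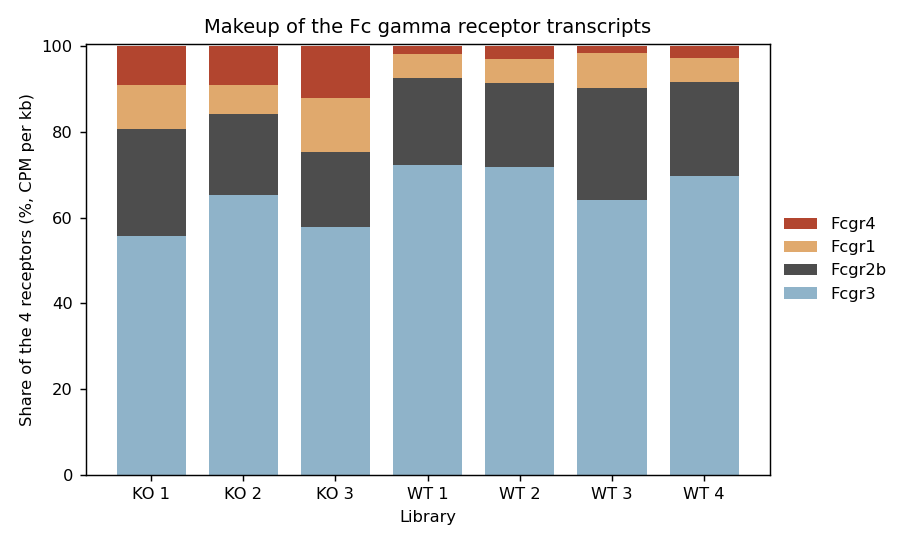
Share of each of the 4 Fc gamma receptors in their summed CPM per kilobase of exon (percent, stacked bars), one bar per library, KO left of WT. The *Fcgr4* part at the top is 8.93% to 12.3% in KO and 1.60% to 2.93% in WT.

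A ratio within a library does not depend on the scaling between libraries. The log2 ratio of activating *Fcgr4* to inhibitory *Fcgr2b* was -3.68, -3.27 and -2.71 in KO replicates 1, 2 and 3, against -5.72, -4.96, -6.24 and -5.16 in WT, a difference of 2.30 between the group means without overlap. The family was chosen because *Fcgr4* was higher in KO, so this difference is a description. With 0.5 CPM added to each gene the difference was 1.03, which is close to or above the level of *Fcgr4* in each WT library. For *Fcgr1* over *Fcgr2b* the log2 ratio was -2.65 to -1.65 in KO and -3.14 to -2.83 in WT, also without overlap. For *Fcgr3* over *Fcgr2b* it was -0.18 ± 0.34 in KO and -0.08 ± 0.26 in WT, so the groups overlapped (SD, n = 3 and 4). The share of gene pairs whose ratio separates the groups was not computed, so nothing is read from these separations.

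The adaptors were higher in KO by similar factors. *Fcer1g*, the common gamma chain (chromosome 1, 171229572 to 171234365), had 78.0, 9.14 and 23.2 CPM in KO, against 5.34, 4.89, 4.03 and 7.30 CPM in WT. *Tyrobp* (chromosome 7, 30413760 to 30417585) had 84.3, 10.9 and 24.8 CPM in KO, against 4.67, 4.31, 4.50 and 6.50 CPM in WT. *Fcer1g* had a log2 fold change of 2.77 (SE 0.65), and *Tyrobp* one of 3.0 (SE 0.62); these came to 1.58 and 1.83 when KO replicate 1 was left out. The log2 ratio of *Fcer1g* to *Tyrobp* stayed between -0.25 and -0.10 in KO and between -0.16 and 0.19 in WT. *Fcgr3* kept a steady ratio to *Fcer1g*, the chain it signals through, with a log2 ratio of 1.25 ± 0.14 in KO and 1.33 ± 0.11 in WT (SD, n = 3 and 4).

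*Syk*, the kinase that binds the phosphorylated adaptors (chromosome 13, 52583173 to 52648792), had 159, 22.9 and 35.9 CPM in KO, against 17.1, 18.3, 12.5 and 18.1 CPM in WT. Its log2 fold change of 2.14 (SE 0.61) was the smallest of the family and came to 0.83 without KO replicate 1. KO replicate 2 exceeded the highest WT library 1.25 times. Relative to *Tyrobp* the kinase was lower in KO, with log2 ratios of 0.92, 1.08 and 0.53 in KO replicates 1, 2 and 3, against 1.87, 2.08, 1.47 and 1.48 in WT.

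*Sh2d1b1* (chromosome 1, 170277320 to 170286769) was scarce in both groups, at 3.48, 1.77 and 2.89 CPM in KO, against 0.345, 0.296, 0.129 and 0.149 CPM in WT. Its KO libraries lay closer together than those of any other member, and the log2 fold change of 3.55 (SE 0.47) kept within 3.33 to 3.84 when any 1 library was left out. KO libraries held 124 to 286 estimated counts of it and WT libraries 9 to 22. Its close copy *Sh2d1b2*, with which it shares 13.4% of its stretches of 50 bases, was listed at 0 in all 7 libraries, and whether reads of the copy were assigned to *Sh2d1b1* was not tested.

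On the length-corrected scale the members formed tiers. These depend on the merged exon lengths, which run from 667 bases for *Tyrobp* to 9362 for *Syk*. In KO, *Tyrobp* (60.0 ± 58.5 CPM per kilobase), *Fcgr3* (47.7 ± 44.3) and *Fcer1g* (42.1 ± 41.7) came first, followed by *Fcgr2b* at 19.0, *Fcgr1* at 8.76, *Fcgr4* at 8.08, *Syk* at 7.76 and *Sh2d1b1* at 1.07. In WT, *Fcgr3* (7.77 ± 1.77 CPM per kilobase), *Tyrobp* (7.49 ± 1.52) and *Fcer1g* (6.17 ± 1.59) came first, with *Fcer1g* the lowest of them in each WT library. *Fcgr2b* at 2.43 ± 0.448 stood below them. Then came *Syk* at 1.76 ± 0.290, *Fcgr1* at 0.678 ± 0.0858, *Fcgr4* at 0.263 ± 0.117 and *Sh2d1b1* at 0.0903 ± 0.0420 (SD, n = 3 KO and 4 WT). The KO libraries ranked in the same order for every member, although by unequal factors. The order of the members was therefore also read within each library. *Tyrobp*, *Fcgr3*, *Fcer1g* and *Fcgr2b* took the first 4 places in this order in each of the 3 KO libraries, and *Sh2d1b1* the last. *Fcgr1*, *Fcgr4* and *Syk* changed places between KO libraries. In WT, *Fcgr3* came first in 3 of the 4 libraries and *Tyrobp* in the other, and the 6 other members kept their places.

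The libraries also differed in the transcripts of cells that carry these receptors. Macrophage markers were higher in KO, with 15 of 15 positive log2 fold changes, a median of 2.15, and 13 of 15 genes without overlap, against 8.17% of all genes. They summed to 902 to 5374 CPM in KO, against 408 to 687 CPM in WT, none was at 0, and they ranked the KO libraries as the Fc receptors did, as their median distance above the WT mean in log2 CPM was 2.78, 0.71 and 1.78 in KO replicates 1, 2 and 3. For the 8 family members this distance was 3.99, 0.98 and 2.23. The family was chosen because *Fcgr4* was higher in KO, so the place of this gene among the markers is a description. *Fcgr4* deviated more than each of the 15 markers in each of the 3 KO libraries. *Sh2d1b1* did so in KO replicates 2 and 3, while 3 markers deviated more in replicate 1. For *Fcgr2b*, *Fcgr3* and *Fcer1g* between 2 and 7 of the 15 markers deviated more, and for *Syk* between 6 and 12. Only macrophage markers were compared in this way. Some neutrophil markers, such as *Csf3r*, had a larger log2 fold change than *Fcgr4*, and others a smaller one.

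**Figure D3:**
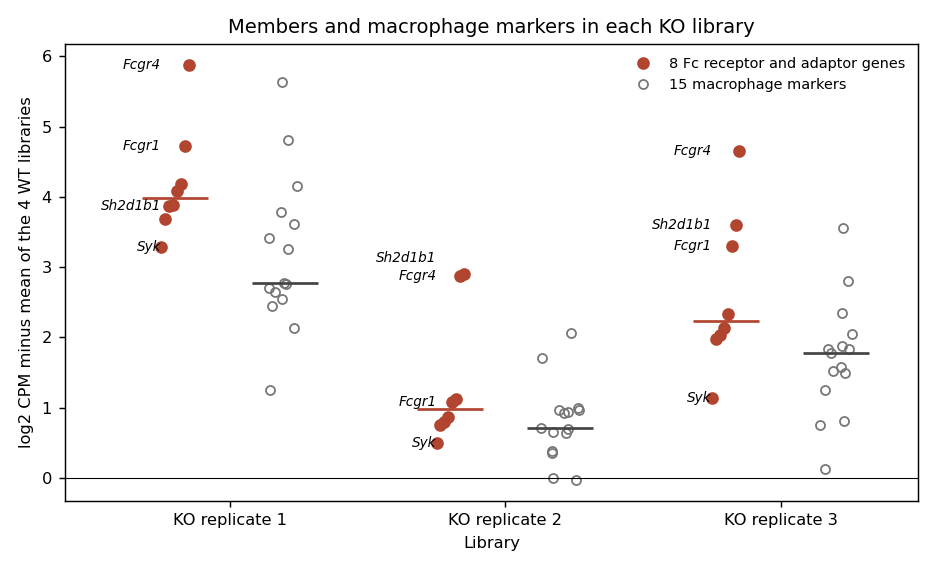
Difference of log2 CPM from the mean of the 4 WT libraries in each KO library, for the 8 Fc receptor and adaptor genes (red) and 15 macrophage markers (open grey), with lines at the medians. *Fcgr4* and *Sh2d1b1* stand apart from the other members in KO replicate 2.

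Set against the mean log2 CPM of the 15 markers within each library, *Fcgr4* was -3.54 ± 0.44 in KO and -6.11 ± 0.45 in WT. *Sh2d1b1* was -5.03 ± 0.77 in KO and -6.59 ± 0.60 in WT, and *Tyrobp* was -1.60 ± 0.28 in KO and -2.22 ± 0.21 in WT (SD, n = 3 and 4). The KO libraries lay above the WT libraries without overlap for these 3 genes. The share of all genes that do so on this scale was not computed, so nothing is read from this count. For *Fcgr1*, at -2.57 ± 0.74 in KO and -3.70 ± 0.29 in WT, KO replicate 2 was among the WT values. The groups overlapped for *Fcgr2b*, *Fcgr3*, *Fcer1g* and *Syk*, whose differences from WT on this scale were 0.40, 0.30, 0.37 and -0.27.

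Other carriers of these receptors were measured by their own markers. Monocyte markers were positive in 8 of 8 tested genes (median log2 fold change 2.86) and summed to 57.1 to 421 CPM in KO, against 18.4 to 47.6 CPM in WT. Of these, *Treml4* did not reach the filter on low counts in WT and so could hardly be lower in KO. Neutrophil markers summed to 17.9 to 476 CPM in KO, against 11.6 to 27.3 CPM in WT, with 7 of 9 tested genes positive. Natural killer cell markers, of which 4 of the 8 tested did not reach the filter on low counts in WT, were scarce, with a sum of 3.30 to 8.14 CPM in KO, against 0.721 to 2.83 CPM in WT. Mast cell markers, which go with the IgE receptor, summed to 39.4 to 66.2 CPM in KO, against 41.5 to 52.2 CPM in WT (5 of 6 positive), and B cell markers to 3.86 to 10.9 CPM in KO, against 2.87 to 6.04 CPM in WT (6 of 7 positive). No gene of these 5 lists was at 0 in every library. The part of these cells in the values of the Fc receptor family was not tested.

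Receptors other than those for IgG that signal through *Fcer1g* or *Tyrobp* were higher in KO as well. Of 22 such receptors 18 were tested, and 17 of these had positive log2 fold changes, with a median of 3.51 (also with *Trem1* set to its bound against 3 counts per library). This median was 2.39 when KO replicate 1 was left out and 3.36 without a filter on low counts. In WT, 6 of the 18 (*Trem1*, *Sirpb1a*, *Sirpb1b*, *Sirpb1c*, *Gp6* and *Ncr1*) did not reach that filter in 3 libraries and so could hardly be lower in KO, and the counts and the median are therefore a description. Over all genes edgeR called 0 of them, with 14 higher and 0 lower at an unadjusted p under 0.05 (9.92% and 7.27% of all genes), and DESeq2 called 12 as higher and 0 as lower (5.32% and 3.05% of all genes). *Clec4n* (Dectin-2), a fungal lectin receptor of the gamma chain, averaged 29.0 ± 36.0 CPM in KO, against 0.581 ± 0.179 CPM in WT, and the related lectin *Clec4d* averaged 17.6 ± 20.6 CPM in KO, against 0.234 ± 0.181 CPM in WT. *Trem2*, a lipid receptor of DAP12, averaged 23.3 ± 26.7 CPM in KO, against 1.48 ± 0.429 CPM in WT, and the signal-regulatory protein *Sirpb1a* 4.62 ± 4.76 CPM in KO, against 0.0836 ± 0.101 CPM in WT (SD, n = 3 and 4; edgeR adjusted p between 0.165 and 0.166 for these 4 genes). *Trem1*, an amplifier of inflammation and named after its values had been seen, was at 15.2, 0.343 and 4.86 CPM in KO and listed at 0 in all 4 WT libraries. The chains of the high-affinity IgE receptor, *Fcer1a* and *Ms4a2*, were low in both groups: *Fcer1a* averaged 0.512 ± 0.123 CPM in KO, against 0.285 ± 0.112 CPM in WT, and *Ms4a2* 0.471 ± 0.0811 CPM in KO, against 0.227 ± 0.0826 CPM in WT. Their log2 fold changes were 0.85 (SE 0.43), with overlap of the groups, and 1.04 (SE 0.44), with KO above WT without overlap. Of the 18 tested receptors, 12 lay above without overlap and 0 below, against 8.17% and 8.56% of all genes.

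The kinases and effectors around Syk had a smaller median log2 fold change, 1.80 over 28 genes, 24 of them positive, and 0.72 without KO replicate 1; edgeR called 0 and had 21 higher and 0 lower at an unadjusted p under 0.05 (9.92% and 7.27% of all genes), and DESeq2 called 17 higher and 0 lower (5.32% and 3.05% of all genes). The Src-family kinase *Lyn*, which phosphorylates both ITAM and ITIM motifs, averaged 65.8 ± 46.3 CPM in KO, against 18.9 ± 2.19 CPM in WT (log2 fold change 1.80, SE 0.42). *Fyn*, a family member expressed in most tissues, averaged 41.7 ± 4.47 CPM in KO, against 37.3 ± 3.94 CPM in WT. *Bcl10*, a scaffold on the way to NF-κB, had a log2 fold change of 0.70 (SE 0.17), and *Pik3ap1*, an adaptor for PI3-kinase, of 2.80 (SE 0.72). Adjusted p-values in edgeR were 0.170 to 0.175 for *Lyn*, *Bcl10* and *Pik3ap1*.

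Brakes on the pathway were likewise positive in most cases. Of the 25 inhibitory receptors, phosphatases and ligases listed 23 were tested, 22 were positive, and the median log2 fold change was 2.23, or 1.05 without KO replicate 1. EdgeR called 0, with 16 higher and 0 lower at an unadjusted p under 0.05 (all genes 9.92% and 7.27%), and DESeq2 called 13 higher and 0 lower (all genes 5.32% and 3.05%). *Inpp5d*, the SHIP1 phosphatase that *Fcgr2b* recruits, averaged 61.3 ± 57.5 CPM in KO, against 12.1 ± 2.72 CPM in WT, and the SHP-1 phosphatase *Ptpn6* 43.4 ± 47.6 CPM in KO, against 5.91 ± 2.34 CPM in WT, both genes chosen for mention with their values known. Among the inhibitory receptors, *Clec12a* averaged 13.3 ± 10.8 CPM in KO, against 1.46 ± 0.333 CPM in WT, and *Lair1*, a collagen receptor, 12.2 ± 10.8 CPM in KO, against 1.36 ± 0.369 CPM in WT. *Pilra* and *Cd33* had log2 fold changes of 3.53 (SE 0.72) and 2.14 (SE 0.49), and edgeR's adjusted p was 0.165 to 0.170 for these 4 receptors.

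**Figure D4:**
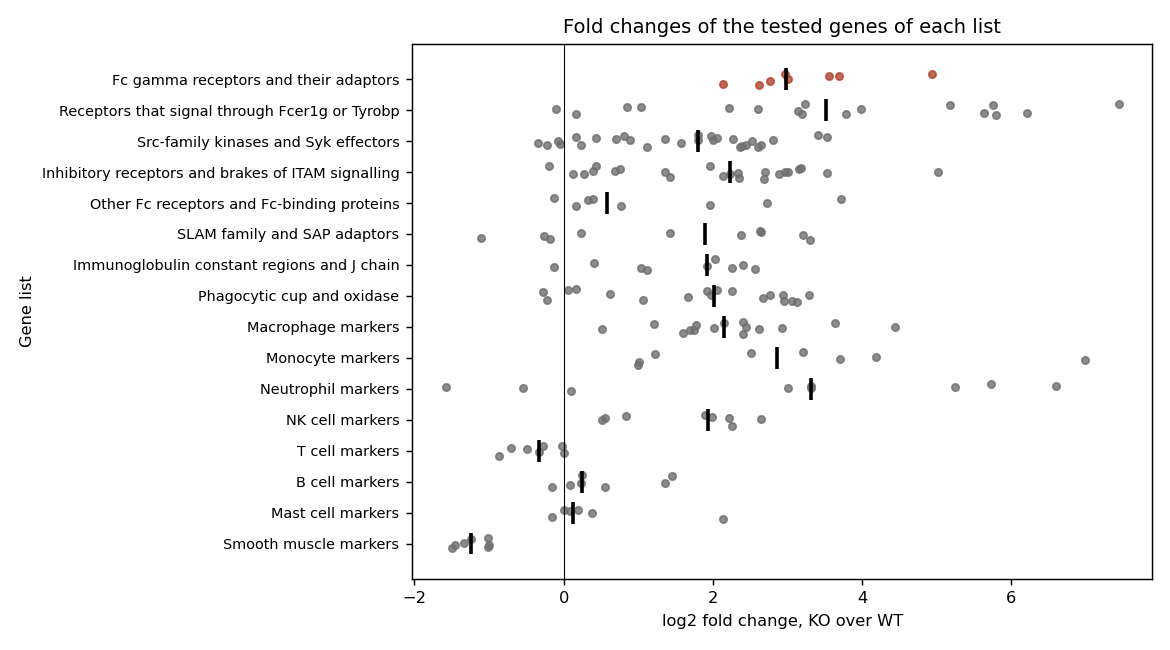
Log2 fold changes of KO over WT for the tested genes of each list (one point per gene, vertical line at the median), with the 8 Fc receptor and adaptor genes at the top in red. *Trem1*, at 0 in all WT libraries, is not drawn; medians run from 3.51 for receptors of the shared adaptors to -1.24 for smooth muscle markers.

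Other Fc receptors, relatives of Fc receptors and Fc-binding proteins had a smaller median difference. Among 11 such genes 8 were tested, with a median log2 fold change of 0.58 (0.37 without KO replicate 1 and 1.15 without KO replicate 2); edgeR called 0, with 3 higher and 0 lower at an unadjusted p under 0.05 (9.92% and 7.27% of all genes), and DESeq2 called 1 higher, *Fcrls*, and 0 lower (5.32% and 3.05% of all genes). *Fcrls*, a scavenger-like relative of Fc receptors in mouse myeloid cells, averaged 51.6 ± 37.1 CPM in KO, against 13.3 ± 2.56 CPM in WT. *Fcgrt*, the neonatal Fc receptor that recycles IgG in endothelium and macrophages, averaged 186 ± 31.4 CPM in KO, against 203 ± 24.2 CPM in WT. The cytosolic IgG sensor *Trim21* averaged 12.7 ± 0.74 CPM in KO, against 10.1 ± 2.25 CPM in WT. *Fcrl1*, a B cell receptor, was scarce, at 0.314 to 1.93 CPM in KO, against 0 to 0.285 CPM in WT, a log2 fold change of 2.72 (SE 1.01). *Pigr*, the epithelial transporter of IgA, was at 0.170, 0.186 and 0.272 CPM in KO, against 0.0563 CPM in WT replicate 2 and 0 in the others, under the filter on low counts in WT. For *Fcrls*, *Pigr*, *Fcrl1* and *Trim21* edgeR's adjusted p was 0.166, 0.195, 0.237 and 0.465. The groups overlapped for *Fcgrt* and *Trim21*, and KO lay above WT for *Fcrls*, *Fcrl1* and *Pigr*, which were named for their small p in this contrast. Of the 8 tested genes, 3 lay above without overlap and 0 below, against 8.17% and 8.56% of all genes.

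The SLAM family, to whose receptors the *Sh2d1b1* adaptor binds, was positive in 7 of 10 tested genes, with a median log2 fold change of 1.90 that was 1.29 without KO replicate 1 and 2.24 without KO replicate 2. EdgeR called 0, with 6 higher and 0 lower at an unadjusted p under 0.05 (9.92% and 7.27% of all genes), and DESeq2 called 6 higher and 0 lower (5.32% and 3.05% of all genes). *Slamf7* averaged 5.41 ± 3.34 CPM in KO, against 0.862 ± 0.343 CPM in WT, *Cd244a* (2B4) 4.49 ± 3.17 CPM in KO, against 0.454 ± 0.218 CPM in WT, *Ly9* 10.7 ± 10.2 CPM in KO, against 1.16 ± 0.617 CPM in WT, and *Cd84* 32.0 ± 31.5 CPM in KO, against 5.18 ± 1.43 CPM in WT (SD, n = 3 and 4; edgeR adjusted p 0.165 to 0.173). KO libraries lay above WT for these 4 genes without overlap, but they were named for the smallest p of the list in this contrast. Of the 10 tested genes, 6 lay above without overlap and 0 below, against 8.17% and 8.56% of all genes.

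The ligand side, immunoglobulin itself, was scarce. The 12 constant-region and J chain genes summed to 21.6 to 66.6 CPM in KO, against 11.3 to 37.7 CPM in WT. None of the 9 tested had groups without overlap, where 8.17% of all tested genes lay above and 8.56% below. With so few genes this is not read as a result. The log2 fold changes of the 9 genes had a median of 1.92, or of 0.88 when KO replicate 3 was left out. EdgeR called 0, with 1 higher (*Jchain*) and 0 lower at an unadjusted p under 0.05 (9.92% and 7.27% of all genes), and DESeq2 called 0. *Igkc*, the kappa light chain, read 5.92, 1.83 and 12.8 CPM in KO, against 0.298, 3.52, 0.688 and 2.20 CPM in WT. *Ighg2c*, an IgG2 heavy chain of the kind *Fcgr4* binds, read 0.194, 0.286 and 3.13 CPM in KO, against 0.313, 0.225, 0.516 and 0.217 CPM in WT, so that KO replicate 3 alone set its positive log2 fold change of 1.92 (SE 0.95), which was -0.40 without that library. *Jchain* and *Igha* were also highest in KO replicate 3, at 7.73 and 19.4 CPM. These are transcripts made in the tissue, and antibody protein from blood is not measured.

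Downstream of the receptors, genes of the phagocytic cup and the oxidase were positive in 16 of 18 tested cases, with a median log2 fold change of 2.01 that was 0.98 without KO replicate 1. EdgeR called 0, with 14 higher and 0 lower at an unadjusted p under 0.05 (all genes 9.92% and 7.27%), and DESeq2 called 12 higher and 0 lower (all genes 5.32% and 3.05%). *Cybb*, the catalytic subunit of the phagocyte oxidase, averaged 66.2 ± 61.9 CPM in KO, against 10.4 ± 1.34 CPM in WT, and its cytosolic partner *Ncf4* 11.9 ± 12.3 CPM in KO, against 1.43 ± 0.395 CPM in WT. The scavenger receptor *Msr1* averaged 29.8 ± 29.0 CPM in KO, against 3.05 ± 0.641 CPM in WT, and the integrin *Itgam*, a chain of complement receptor 3, 107 ± 122 CPM in KO, against 12.2 ± 4.19 CPM in WT (SD, n = 3 and 4; edgeR adjusted p 0.166 to 0.172).

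Genes next to the receptor cluster were examined to see how far the difference reached along the chromosome. Within 500000 bases of *Fcgr4* there were 33 tested genes besides the 4 members, with a median log2 fold change of -0.04, 15 of them positive. KO lay above WT without overlap for 3 of them (*Adamts4*, *Arhgap30* and *Tstd1*) and below for 3 (*Pcp4l1*, *Ppox* and *Klhdc9*), where 8.17% of all genes lay above and 8.56% below. The nearest tested neighbours of the cluster, *Fcrla* and *Cfap126*, had log2 fold changes of 0.16 (SE 0.90) and -0.43 (SE 0.41). Further along, the aggrecan-cleaving protease *Adamts4* averaged 23.7 ± 17.4 CPM in KO, against 3.01 ± 0.311 CPM in WT (SD, n = 3 and 4). *Arhgap30* was at 20.1 to 106 CPM in KO and at 6.88 to 15.4 CPM in WT, and *Pcp4l1* at 10.6 to 38.5 CPM in KO and at 49.9 to 61.9 CPM in WT, a log2 fold change of -1.23 (SE 0.38); these genes are mentioned because of their values.

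**Figure D5:**
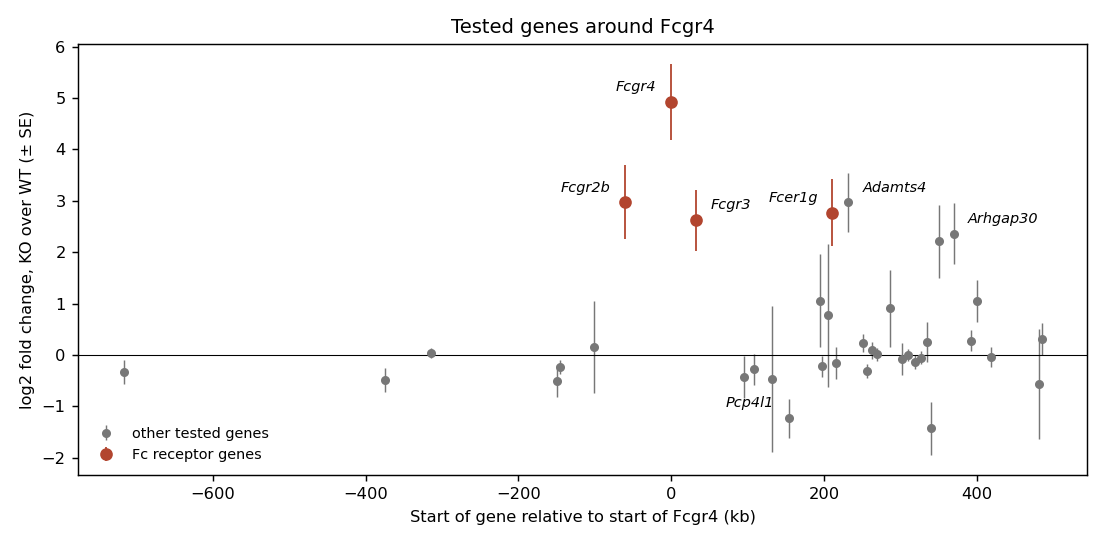
Log2 fold change of KO over WT with its standard error for the tested genes within 500000 bases of *Fcgr4*, by the distance of their start from its start (kb), with Fc receptor genes in red. Most neighbours lie near 0 (median -0.04 without the red genes), with *Adamts4* and *Arhgap30* above and *Pcp4l1* below.

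The genes whose pattern over the 7 libraries was most like that of *Fcgr4* were sought among 13545 genes with a mean of 2 CPM or more, by the Pearson correlation of log2 CPM. They were *Ms4a4c*, a membrane protein of monocytes (r = 0.9947), *Mlkl*, the effector of necroptosis (0.9940), *Gpr65*, a proton-sensing receptor of leukocytes (0.9934), *Slamf7* (0.9934) and the MHC class II chain *H2-Ab1* (0.9914). *Mlkl* followed the pattern with a narrower span, at 17.8, 8.77 and 13.4 CPM in KO, against 5.50, 5.80, 5.18 and 6.49 CPM in WT. The 7 other members correlated with *Fcgr4* at 0.894 (*Syk*) to 0.964 (*Tyrobp*, rank 119). All these coefficients share the same 7 libraries and the same split into KO and WT, for which *Fcgr4* was chosen, and are given as a description.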

How the data were processed

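Per the labels' protocols, aorta RNA was isolated with Trizol and made into libraries with a SMARTER kit. The deposited values are estimated counts for each Ensembl gene, whole numbers without scaling, in 1 table from the authors for all 7 libraries. The submitters' processing notes name GRCm38 as well as mm10, while for the aligner, counting tool and strand setting nothing is given in the sources used here. Low values pile up at multiples of 4 (1.09 to 1.41 times their neighbours), so a count is not taken as 1 read, and intervals from counting were not given. Of 47729 identifiers 47224 matched a symbol, and 120 that share a symbol kept their identifier.

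The 8 members, the 7 pathway and 12 cell type lists and the tests were chosen with earlier results of these data known. Counts, already whole, were tested with edgeR 4.0.16 in R 4.3.3 (filterByExpr with *Mmp19* and *Acan* kept, TMM, glmQLFit, glmQLFTest, Benjamini-Hochberg over all tested genes, threshold 0.05, no covariates). Alternatives were DESeq2 1.42.0, limma-voom (limma 3.58.1) with sample quality weights, other scalings and filters, the replicate block, leaving out each library, and, chosen after seeing the data, counts divided by 4. The procedure was tested on simulated data. CPM use TMM-scaled library sizes; log2 CPM add a prior count of 2. Kilobases are of merged GENCODE M21 exons. From each pathway list the 4 genes of smallest p were named, apart from 1 that is not reported here; genes outside this rule are *Fyn*, *Fcgrt*, *Fcer1a*, *Ms4a2* and those marked as such in the text. *Lilrb4a* and *Lilr4b* were not analysed here. All 7 columns were used, and no library was a duplicate of another (mean chi-square per gene 22.8 or more).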

Additional observations from a re-analysis of the deposited data

Results flagged for a closer look

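A library was singled out when its distance from the nearest other library of the 4 WT, divided by the range of all 4, exceeded the critical value of Dixon's test at the 95% level, which chance gives in about 1 of 20 groups; 62 groups were examined and 7 exceeded it. *Tyrobp* was highest in WT replicate 4, at 6.50 CPM against 4.31 to 4.67 CPM in the other WT libraries (0.835). The log2 ratio of *Fcer1g* to *Tyrobp* was lowest in WT replicate 3, at -0.16 against 0.17 to 0.19 (0.924). The summed level of the Src-family kinases and Syk effectors was lowest in WT replicate 3, at 365 CPM against 399 to 405 CPM (0.863). WT replicate 2 was highest in the other 4 cases. Its T cell markers summed to 135 CPM against 11.5 to 18.0 CPM in the other WT libraries (0.948), and its neutrophil markers to 27.3 CPM against 11.6 to 13.5 CPM (0.879). *Igha* was at 4.86 CPM there and at 0.380 CPM or less in the others (0.922), and *Pigr* at 0.0563 CPM and at 0 in the others (1).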

How the results depend on the processing

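All 8 members kept a positive log2 fold change under every alternative run. Their median, 2.98 as reported, was 1.95 with limma-voom and 1.71 to 3.51 when any 1 library was left out, the lowest without KO replicate 1. The difference in the log2 ratio of *Fcgr4* to *Fcgr2b*, 2.30, was 1.03 with 0.5 CPM added and 2.04 to 2.53 with a library left out. The number of genes called, 3 in edgeR, was 1606 with DESeq2, 7 with limma-voom, 7 with at least 50 counts in 3 libraries, 7 with counts divided by 4, 0 without a filter and 0 to 1029 with a library left out, 1029 being without KO replicate 2 and 0 without any other library; the causes were not tested. Of 28 named list genes, the direction changed in 1 case, *Ighg2c*, whose log2 fold change ran from -0.40 without KO replicate 3 to 2.41 without KO replicate 1. With the replicate number as a block 0 genes were called; the same-numbered libraries of KO and WT deviated from their group means with correlations of 0.05, 0.07 and 0.34, so the numbers were not taken as pairs, and not every library correlated best with its own number. Low counts limit *Fcgr4* and *Sh2d1b1* in WT, and the 3 KO libraries differ widely among themselves.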

Other observations

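Lists that bear less on Fc receptors gave these values. Dendritic cell markers (7 genes, median log2 fold change 2.38) summed to 39.2 to 62.9 CPM in KO and 29.7 to 40.1 CPM in WT. T cell markers, with a median of -0.33 over 7 genes, summed to 15.8 to 46.3 CPM in KO and 11.5 to 135 CPM in WT. Endothelial markers summed to 868 to 1519 CPM in KO and 1453 to 1590 CPM in WT (median -0.29 over 7 genes), and lymphatic endothelial markers to as much as 134 CPM in KO and 60.5 to 98.6 CPM in WT (median 0.45 over 5 genes, 5 of 5 positive), with the sum of every KO library above that of every WT library. Adipocyte markers summed to 784 to 2607 CPM in KO and 1149 to 2494 CPM in WT (median 0.03 and mean -0.08 over 5 genes). EdgeR called 0 genes of these 5 lists over all genes, and at an unadjusted p under 0.05 it had 6 dendritic cell genes, all higher, and 0 of the others; DESeq2 called 3 dendritic cell genes, all higher, and 0 of the others.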
